A study of Mus musculus with 16 samples.

Results

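Branched-chain amino acid breakdown was followed through 10 genes measured in liver RNA: Bckdha, Bckdhb, Dbt, Bckdk, Ppm1k, Ivd, Mccc1, Mccc2, Hibch and Hibadh. They were taken by name, with no threshold on a measured value, although earlier results of these data were known, and each matched 1 Ensembl gene identifier in the deposited table. All 10 were among the 11839 genes that averaged 1 TPM or more, the level set for testing, where TPM divides the reads of a gene by its length and gives all libraries the same total. Livers came from 16 male C57BL6/J mice, 1 library per mouse and 4 mice per group. All mice were made obese on a diet with 60% of energy as fat for 8 weeks from 10 weeks of age, and they stayed on high-fat food throughout. The groups were vehicle on standard protein (vehicle SP), vehicle on high protein (vehicle HP), G108 on standard protein (G108 SP) and G108 on high protein (G108 HP). G108, a long-acting glucagon analogue that activates the glucagon receptor, was given under the skin once daily at 2.5 nmol/kg for 22 days, and livers were taken on day 25 after a 4 h fast. The comparisons asked what the agonist and the dietary protein each did to hepatic transcripts of this pathway, and whether one changed the effect of the other.

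Leucine, isoleucine and valine first lose their amino group to branched-chain aminotransferases, a step for which liver has little capacity compared with muscle. The resulting ketoacids reach the liver in blood and are committed to oxidation by the branched-chain ketoacid dehydrogenase complex in mitochondria. That complex is switched off by a kinase, BDK, encoded by Bckdk, and switched on again by a phosphatase, PP2Cm, encoded by Ppm1k. Beyond it the pathway divides into a leucine branch that ends in acetyl-CoA and acetoacetate, and isoleucine and valine branches that yield propionyl-CoA.

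The libraries held between 27.8 and 45.03 M assigned reads, recovered from the spacing of low TPM values. Major urinary protein (Mup) genes, which encode abundant secreted liver proteins, took 42.6 to 49.7% of TPM in vehicle SP livers, 35.7 to 44.9% in vehicle HP, 18.3 to 23.0% in G108 SP and 18.2 to 29.6% in G108 HP. Mitochondrial transcripts took a median of 16.1% in vehicle SP, 17.5% in vehicle HP, 19.0% in G108 SP and 24.2% in G108 HP. TPM are shares of a library, so a change in abundant transcripts can move all others. The median gene had a log2 fold change of 0.60 for G108 on SP, 0.09 for G108 on HP, 0.14 for HP with vehicle, -0.35 for HP with G108 and -0.49 for the interaction. The part of the Mup and mitochondrial shares in these medians was not tested. Every comparison was therefore also made after median-of-ratios scaling, which divides each library by the median ratio of its genes to their geometric mean over all libraries and left these medians between -0.01 and 0.01. Vehicle SP mouse 4 had the lowest correlation with its group (0.925, shared with mouse 3), and G108 HP mouse 3 had the largest share of mitochondrial transcripts (37.3%, against 13.8 to 27.4% elsewhere). Hepatocyte markers such as Alb and Apoa1 were abundant in every library, with all 7 listed above a mean of 1 TPM. They summed to 18940 to 41020 TPM in vehicle SP, 30360 to 43540 in vehicle HP, 42240 to 62620 in G108 SP and 25680 to 49040 in G108 HP. In the same order of groups, 5 endothelial markers had median sums of 14.9, 16.5, 20.9 and 17.0 TPM. Those of 5 stellate markers were 10.9, 13.3, 17.2 and 12.8 TPM. The 7 Kupffer cell markers summed to 39.1 to 63.0 TPM in vehicle SP, 51.3 to 74.04 in vehicle HP, 35.0 to 133 in G108 SP and 36.3 to 77.2 in G108 HP. The 5 cholangiocyte markers summed to 10.2 to 19.2 TPM in vehicle livers and 14.7 to 19.9 TPM in G108 livers. Most of that sum was Spp1 (mean 14.5 TPM), and the other markers of this list averaged below 1 TPM. The 5 erythroid markers summed to 605 to 2106 TPM over all livers. Lymphocyte, skeletal muscle and exocrine pancreas markers each stayed below a mean of 1 TPM. The part of other cells in the results was not tested, and in bulk tissue fewer cells of a type cannot be told apart from less RNA per cell.

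Among the members, Bckdha transcripts were by far the most abundant and Bckdk and Mccc1 the least. Bckdha encodes the alpha subunit of the E1 decarboxylase of the complex and lies at chr7:25629946-25658981 on the minus strand of GRCm38. Its mean was 102 TPM (SD 24.8, n = 4) in vehicle SP, 120.4 TPM (SD 4.44) in vehicle HP, 184 TPM (SD 14.9) in G108 SP and 130.5 TPM (SD 21.2) in G108 HP. Bckdhb (chr9:83925145-84124240, plus strand), which encodes the beta subunit of E1, was the second in every group, at 36.3 to 53.1 TPM on average. Next came Ivd, at 24.0 to 46.9 TPM, then Hibadh at 18.1 to 27.4 TPM, Dbt at 10.3 to 22.6 TPM and Mccc2 at 9.05 to 18.2 TPM. Ppm1k (6.54 to 11.05 TPM) and Hibch (4.51 to 7.30 TPM) followed. At the bottom, Mccc1 (2.08 to 4.84 TPM) and Bckdk (2.30 to 3.41 TPM) had overlapping ranges in all 4 groups, with Mccc1 the lowest in vehicle SP and Bckdk the lowest in the others. The first 8 places held the same genes in all 4 groups. In vehicle HP each of these 8 genes was clear of its neighbour, with every mouse above every mouse of the next gene, whereas in G108 HP only Bckdha was. These levels divide reads by the full exon length of a gene, which was 10952 bases for Mccc1 and 10179 for Hibadh against 1899 for Bckdha and 1805 for Bckdhb. The least covered member, Bckdk, still had 210 to 359 reads per library, a counting error of 5.28 to 6.90%, and no other member exceeded 4.50%. The spread between mice ranged from 3.69% of the mean (Bckdha in vehicle HP) to 43.6% (Mccc1 in G108 HP).

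**Figure D1:**
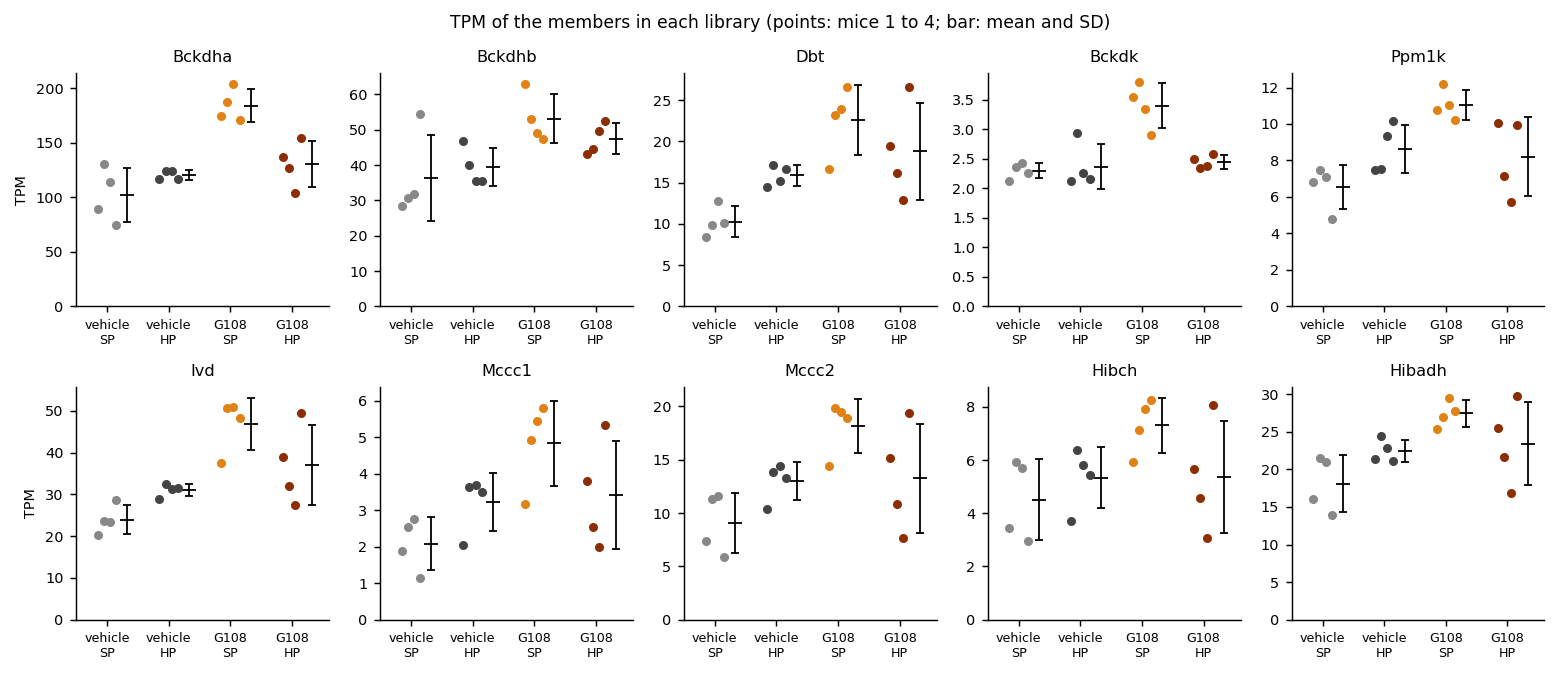
TPM of each of the 10 members (vertical axes, from 0) in the 16 livers, with 1 point per mouse in mouse order within each group and a bar for the mean and SD of 4 mice. G108 SP livers sit highest for every member on average, and the G108 HP points of Dbt, Mccc1, Mccc2 and Hibch spread over at least 2-fold.

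On the standard protein diet, G108 livers held more of every member in TPM, as they did of most genes, and no member was called once the shift shared by all genes was scaled out. In TPM, 10 of 10 members rose with G108 (limma, Benjamini-Hochberg adjusted p from 0.000924 to 0.0256), where 77.0% of all genes tested were called higher. In 8 of the 10 every G108 SP liver exceeded every vehicle SP liver, as it did for 56.0% of all genes, the exceptions being Bckdhb and Hibch. The median log2 fold change of the members was 0.78, against 0.60 for all genes tested. After median-of-ratios scaling 0 of 10 members were called by limma or by voom on the recovered reads, 1 had an unadjusted p under 0.05, and 2.72% of all genes were called. The calls of the whole table went from 9113 higher and 72 lower to 158 higher and 164 lower under that scaling. The scaled members had a median log2 fold change of 0.05 against -0.01 for all genes, and in 0 of 10 were the groups apart upwards, as they were in 4.52% of all genes.

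Among the 3 members that encode E1 and E2 subunits of the dehydrogenase, the difference was largest for Dbt and smallest for Bckdhb. Dbt (chr3:116513070-116549981, plus strand) encodes E2, the lipoate-bearing core on which the complex is assembled. Vehicle SP mice 1 to 4 had 8.41, 9.81, 12.8 and 10.1 TPM of Dbt, and G108 SP mice had 16.6, 23.2, 23.9 and 26.6 TPM. The groups did not overlap, with a log2 fold change of 1.06 (SE 0.20, adjusted p = 0.000979 in limma). After scaling, Dbt was at 12.2, 10.2, 14.4 and 14.8 with vehicle and 14.2, 17.6, 15.5 and 18.1 with G108. The scaled groups overlapped, and the log2 fold change of 0.33 (95% confidence interval 0.06 to 0.60) had an unadjusted p of 0.0209 and an adjusted p of 0.202 in limma. Dbt was above 88.8% of all genes tested in that scaled difference.

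Bckdha and Bckdhb, which pair to form E1, were less alike. Bckdha was at 89.7, 130.4, 114 and 74.6 TPM with vehicle and 175, 188, 204 and 170.5 TPM with G108, 2 ranges that did not overlap (log2 fold change 0.87, SE 0.17, limma adjusted p = 0.0012). Scaled, its difference was 0.10 (95% confidence interval -0.12 to 0.32). Bckdhb was at 28.4, 30.6, 31.9 and 54.4 TPM with vehicle and 62.9, 53.1, 49.0 and 47.3 TPM with G108. Vehicle mouse 4 lay inside the G108 range while the other 3 vehicle livers were well below it. The log2 fold change of Bckdhb was 0.58 in TPM (limma adjusted p = 0.0116) and -0.18 after scaling (95% confidence interval -0.72 to 0.35), and without vehicle SP mouse 4 these became 0.78 and 0.10. Both genes overlap others on the opposite strand (Bckdha the protein-coding B3gnt8), and whether counting used strand is not given in the sources used here. Dbt, Ppm1k, Hibch and Hibadh also overlap annotated genes on the opposite strand, as does Bcat2, described further on.

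The kinase and the phosphatase that set the activity of the complex were both higher in TPM and neither passed the test after scaling. Bckdk (chr7:127904082-127910221, plus strand) was at 2.13, 2.36, 2.43 and 2.27 TPM in vehicle SP and 3.55, 3.81, 3.35 and 2.91 TPM in G108 SP. It was the member with the smallest log2 fold change in TPM (0.41, SE 0.10, limma adjusted p = 0.00312), below the median of all genes, and after scaling the sign turned to -0.15 (95% confidence interval -0.38 to 0.07). Ppm1k (chr6:57506502-57535468, minus strand) was at 6.80, 7.49, 7.08 and 4.79 TPM in vehicle SP and 10.75, 12.2, 11.03 and 10.2 TPM in G108 SP. Its log2 fold change was 0.69 in TPM (SE 0.17, limma adjusted p = 0.00352) and -0.00 after scaling (95% confidence interval -0.32 to 0.32).

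The promoters of both regulators are shown because they act on the same complex in opposite directions, together with that of Klf15, described further on, the only gene of the wider pathway called on SP under both scalings. Each is the 250 bases before the start site in RefSeq, build GRCm38.p6, written 5′ to 3′ on the strand of the gene. Capitals mark TGACG or its reverse complement CGTCA, the core of the cAMP response element, through which glucagon signalling is known to act on liver genes. Bckdk lies at chr7:127903823-127904072 on the plus strand, Ppm1k at chr6:57535488-57535737 on the minus strand and Klf15 at chr6:90462326-90462575 on the plus strand.
Bckdk: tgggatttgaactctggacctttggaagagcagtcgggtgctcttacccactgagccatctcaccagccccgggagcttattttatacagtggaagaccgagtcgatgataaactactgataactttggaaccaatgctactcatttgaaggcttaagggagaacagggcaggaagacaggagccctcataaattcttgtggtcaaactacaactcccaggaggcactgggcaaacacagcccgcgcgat
Ppm1k: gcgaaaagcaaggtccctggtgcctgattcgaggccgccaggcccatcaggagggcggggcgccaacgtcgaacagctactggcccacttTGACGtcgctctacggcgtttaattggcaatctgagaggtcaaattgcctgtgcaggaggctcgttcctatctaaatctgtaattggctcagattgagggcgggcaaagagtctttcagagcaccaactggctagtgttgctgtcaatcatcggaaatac
Klf15: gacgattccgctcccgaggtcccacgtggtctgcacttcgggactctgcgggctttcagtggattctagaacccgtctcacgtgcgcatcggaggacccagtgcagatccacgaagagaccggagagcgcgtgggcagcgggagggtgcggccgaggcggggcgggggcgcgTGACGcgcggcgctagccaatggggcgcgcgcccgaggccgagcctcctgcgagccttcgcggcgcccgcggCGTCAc
The core was present in 1 of the 9 members with a promoter in the table (Ppm1k, once, starting 160 bases before the start site) and in 19.8% of 27025 genes. It was present at 2 places in the Klf15 promoter, starting 78 and 6 bases before the start site, the second on the reverse strand. The core was absent from each Bcat2 promoter and from that of Dld, the other pathway genes searched. The share of all genes with the core at 2 places was not counted, and whether these sites are used was not tested. The full element TGACGTCA, which contains the core, was in 0 of the 9 and in 1.77% of all genes. The promoter of Dbt was not analysed here.

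In the leucine branch the differences on SP in TPM were close to that of Dbt on log2(TPM + 1), which understates changes of low genes such as Mccc1. With no 1 added, mean TPM went from 2.08 to 4.84 for Mccc1 and from 10.3 to 22.6 for Dbt. Ivd (chr2:118861954-118882909, plus strand) encodes isovaleryl-CoA dehydrogenase, and it went from 20.2 to 28.6 TPM in vehicle SP livers to 37.6 to 50.8 TPM in G108 SP livers, with no overlap (log2 fold change 0.94, limma adjusted p = 0.000924). Mccc1 (chr3:35959312-36000678, minus strand) and Mccc2 (chr13:99948530-100015639, minus strand) encode both subunits of the biotin-dependent methylcrotonyl-CoA carboxylase. Mccc1 was at 1.87, 2.55, 2.75 and 1.15 TPM with vehicle and 3.18, 4.93, 5.43 and 5.81 TPM with G108 (log2 fold change 0.93, limma adjusted p = 0.00417). Mccc2 was at 7.41, 11.3, 11.6 and 5.92 TPM with vehicle and 14.4, 19.9, 19.4 and 18.9 TPM with G108 (log2 fold change 0.97, limma adjusted p = 0.00373). For both subunits vehicle mouse 4 was the lowest liver and every G108 liver was above every vehicle liver. Scaled, the log2 fold changes were 0.18 for Ivd, 0.35 for Mccc1 and 0.25 for Mccc2, above 77.1, 90.0 and 83.5% of all genes, and none passed the test (limma adjusted p of 0.482, 0.295 and 0.396). Antisense genes, Mccc1os among them, overlap Mccc1.

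The valine branch enzymes were nearer to the median gene. Hibch (chr1:52844929-52920986, plus strand) encodes the hydrolase that frees 3-hydroxyisobutyrate, which leaves mitochondria readily, and Hibadh (chr6:52546228-52640389, minus strand) the dehydrogenase that oxidises it. Hibch was at 3.44, 5.94, 5.69 and 2.96 TPM with vehicle and 5.92, 7.12, 7.91 and 8.25 TPM with G108, and the ranges just overlapped (log2 fold change 0.63, limma adjusted p = 0.0256). The call of Hibch was lost without vehicle SP mouse 1 or 4 or G108 SP mouse 3 or 4, with adjusted p up to 0.0836 in limma. Hibadh ranged from 13.9 to 21.5 TPM with vehicle and from 25.4 to 29.6 TPM with G108 (log2 fold change 0.59, limma adjusted p = 0.00675). Scaled, both signs turned, to -0.03 for Hibch (95% confidence interval -0.34 to 0.28) and -0.15 for Hibadh (-0.33 to 0.03).

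**Figure D2:**
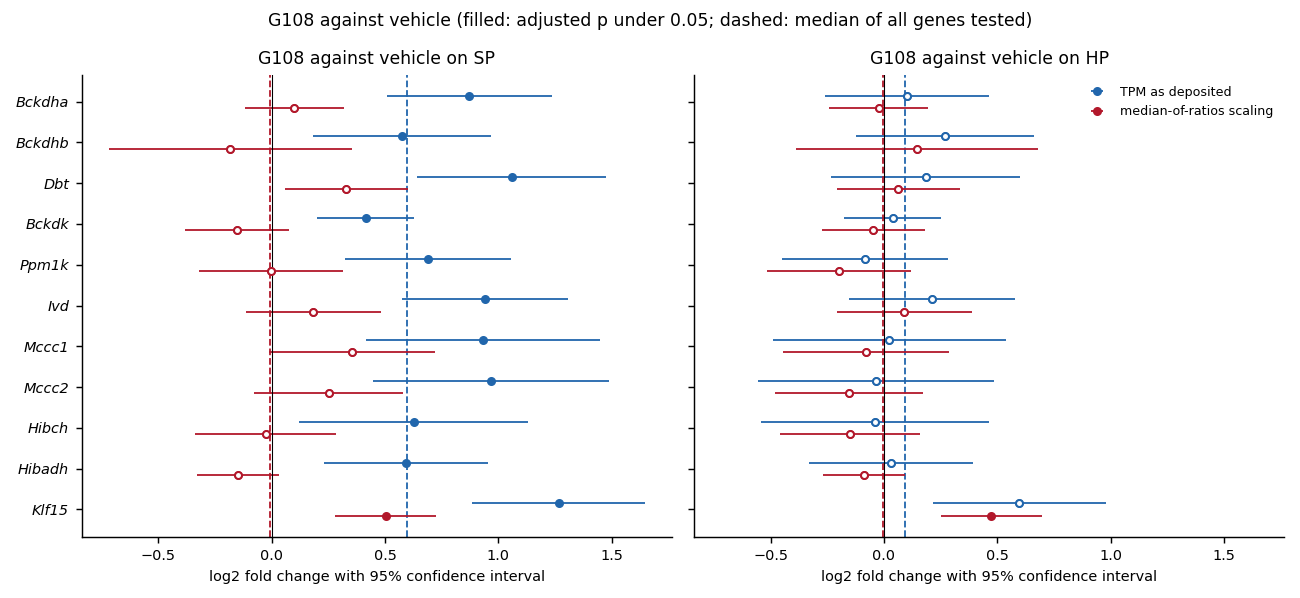
Log2 fold change of G108 against vehicle (horizontal axis, with 95% confidence intervals from limma, 4 livers per group) for the 10 members and Klf15, on SP and on HP, from TPM as deposited and after median-of-ratios scaling. Filled points passed an adjusted p of 0.05 and dashed lines give the median of all 11839 genes, so the distance from a point to the line of its colour is the change relative to other genes, which is positive on SP in TPM for 7 of the 10 members.

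On the high protein diet no member was called between G108 and vehicle, except Bckdhb when libraries were weighted. By limma 0 of 10 members were called in TPM, where 1.11% of all genes were, and 0 of 10 after scaling, where 1.22% were, and in neither did a member have an unadjusted p under 0.05. The calls of the whole table were 97 higher and 35 lower in TPM and 76 higher and 69 lower after scaling, and voom called 0 members. With array quality weights in limma, which let each library count by its own spread, Bckdhb alone of the members was called in TPM (log2 fold change 0.32, adjusted p = 0.034), as were 2126 of all genes. Log2 fold changes in TPM ran from -0.08 for Ppm1k (95% confidence interval -0.45 to 0.28) to 0.27 for Bckdhb (-0.12 to 0.66), with a median of 0.04 against 0.09 for all genes. Dbt was at 14.5, 17.2, 15.2 and 16.7 TPM in vehicle HP and at 19.5, 16.2, 12.9 and 26.6 TPM in G108 HP. The 4 treated livers thus spanned the whole vehicle range and beyond it on both sides, and the log2 fold change was 0.18 (95% confidence interval -0.23 to 0.60). Ivd behaved in the same manner, with 28.9 to 32.4 TPM in vehicle HP and 27.4 to 49.5 TPM in G108 HP. Bckdk was at 2.12, 2.94, 2.26 and 2.17 TPM in vehicle HP and 2.50, 2.34, 2.37 and 2.58 TPM in G108 HP (log2 fold change 0.04, 95% confidence interval -0.18 to 0.25). Vehicle HP mouse 2 was above every G108 HP liver, and the other vehicle HP livers were below every one. Without vehicle HP mouse 2 the log2 fold change of Bckdk was 0.12.

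The spread inside the G108 HP group was carried by 2 livers at opposite ends. G108 HP mouse 3 was the lowest of its group for 8 of 10 members in TPM and for the same 8 after scaling, the others being Bckdhb and Bckdk, for which it was the highest after scaling. G108 HP mouse 4 was the highest for 9 of 10 members in TPM and for 5 of 10 after scaling. Mitochondrial transcripts made up 37.3% of TPM in mouse 3 and 21.02% in mouse 4, and the part of this in the members' levels was not tested. Vehicle SP mouse 4 showed a like contrast among members, being lowest for Bckdha, Ppm1k, Mccc1, Mccc2, Hibch and Hibadh and highest for Bckdhb and Ivd in TPM. An alternative chosen after the data were seen left out vehicle SP mouse 4 and G108 HP mouse 3. There 10 of 10 members were still called on SP in TPM, with 8842 of 11916 genes called higher and 70 lower. After scaling, 0 of 10 members and 243 of all genes were called on SP. On HP 0 of 10 members were called under either, with 63 of all genes called in TPM and 15 after scaling.

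High protein alone, in vehicle livers, went with more Dbt in every mouse, although no gene in the table passed the adjusted test with 1 mean per group and no library weights. By limma 0% of all genes were called in TPM and 0% after scaling, with 374 and 466 genes at an unadjusted p under 0.05, and voom called 0. Dbt went from 8.41 to 12.8 TPM in vehicle SP to 14.5 to 17.2 TPM in vehicle HP, without overlap. Its log2 fold change was 0.59 in TPM (SE 0.20, unadjusted p = 0.00835, adjusted p = 0.727, limma) and 0.41 after scaling (SE 0.13, unadjusted p = 0.00578, adjusted p = 0.832, limma). Leaving out single libraries gave scaled values from 0.31 to 0.48. Array quality weights in TPM called 79 of all genes and 0 members, with Dbt at a log2 fold change of 0.39 (limma adjusted p = 0.142). Dbt was above 97.1% of all genes in this difference in TPM and above 96.2% after scaling.

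Of the other members, Ivd also had groups apart in TPM, at 20.2 to 28.6 against 28.9 to 32.4 TPM (log2 fold change 0.37, 95% confidence interval 0.00 to 0.73). These were 2 of 10 members, where 1.33% of all genes had every vehicle HP liver above every vehicle SP liver. After scaling Dbt was the 1 member of 10 apart upwards, against 0.938% of all genes. On log2(TPM + 1), which understates changes of low genes, Mccc2 and Mccc1 came next in size. Their scaled log2 fold changes were 0.34 (95% confidence interval 0.01 to 0.66) and 0.35 (-0.02 to 0.71), and without vehicle SP mouse 4 these were 0.24 and 0.22. Mean scaled TPM, with no 1 added, went from 2.53 to 3.49 for Mccc1 and from 12.9 to 17.3 for Dbt. The order of Dbt and Mccc1 thus depends on the 1 added. Bckdk had the smallest log2 fold change in TPM, at 0.03, and was the most negative member after scaling, at -0.12 (95% confidence interval -0.35 to 0.10). The median of the members was 0.34 in TPM against 0.14 for all genes, and 0.15 after scaling against -0.00.

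With G108, high protein went with lower TPM of every member, as it did for most genes. By limma 0% of all genes were called in TPM and 0% after scaling, with 5325 and 639 genes at an unadjusted p under 0.05, and voom called 0. In TPM, 3 members (Bckdha, Bckdk and Ppm1k) had every G108 HP liver below every G108 SP liver, where 20.5% of all genes did. Bckdk had the smallest unadjusted p of the members in TPM, at 2.91 to 3.81 TPM on SP and 2.34 to 2.58 TPM on HP (log2 fold change -0.35, unadjusted p = 0.0033, adjusted p = 0.0728, limma), close to the median of all genes (-0.35). After scaling Bckdk differed by -0.02 (95% confidence interval -0.25 to 0.21). The 1 member with an unadjusted p under 0.05 after scaling was Hibadh, whose sign turned from -0.25 in TPM to 0.18 (95% confidence interval 0.00 to 0.37, unadjusted p = 0.0466, adjusted p = 0.858, limma). Scaled Hibadh was at 19.0 to 21.7 in G108 SP and 20.1 to 24.9 in G108 HP, which overlapped. Log2 fold changes of the members ran from -0.50 (Bckdha) to -0.15 (Bckdhb) in TPM, all negative, and from -0.09 (Mccc1) to 0.29 (Bckdhb) after scaling, where 4 of 10 were positive. In TPM, leaving out G108 HP mouse 4 gave 7 members called, all lower, with 5019 of 11791 genes called lower. Leaving out vehicle SP mouse 4 gave 2 members with 1716 of 11894 genes called lower, and leaving out G108 SP mouse 1 gave 1 member with 2984 of 11801. After scaling no member was called without any of the 16 libraries. Array quality weights in TPM called 9 members, all but Bckdhb, with 8415 of all genes called lower.

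**Figure D3:**
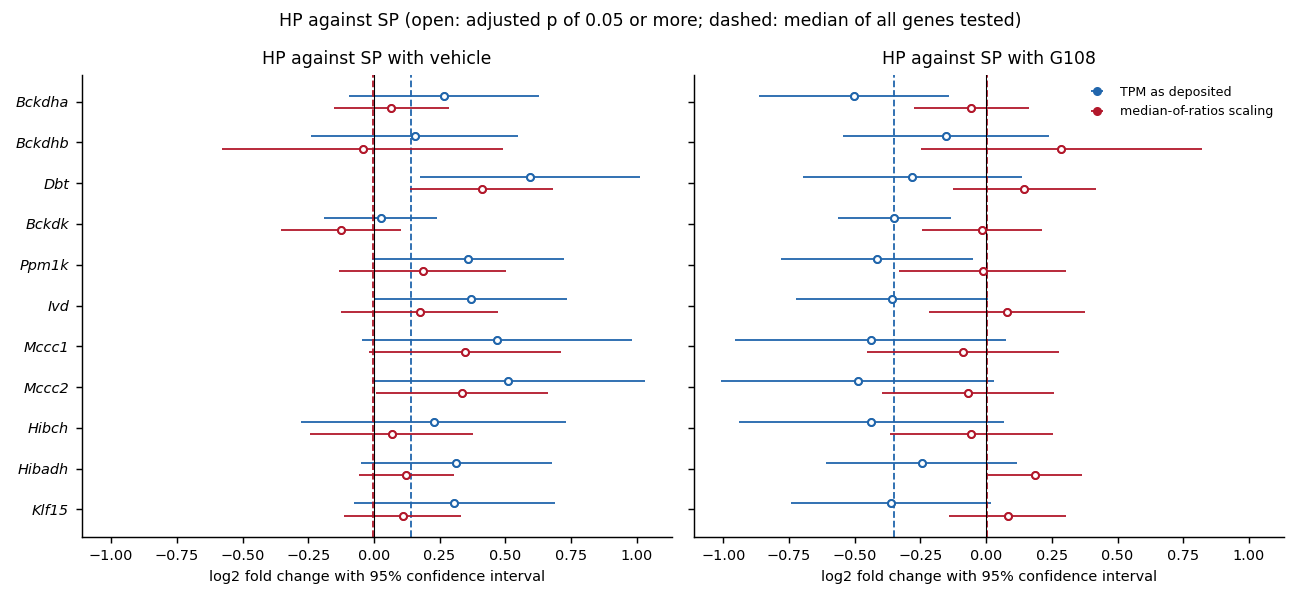
Log2 fold change of HP against SP (horizontal axis, with 95% confidence intervals from limma, 4 livers per group) for the 10 members and Klf15, in vehicle and in G108 livers, from TPM as deposited and after median-of-ratios scaling. Open points had an adjusted p of 0.05 or more and dashed lines give the median of all genes tested, and Dbt with vehicle is the interval farthest to the right of both lines.

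The interaction asked whether the effect of G108 differed between the diets. All 10 members had a negative interaction in TPM, from -1.001 for Mccc2 (95% confidence interval -1.74 to -0.26) to -0.31 for Bckdhb, and 8 of 10 had an unadjusted p under 0.05 in limma. None passed the adjusted test (lowest adjusted p = 0.0799), nor did any of the genes tested (0%), of which 5685 had an unadjusted p under 0.05. After scaling 0 of 10 members had an unadjusted p under 0.05, again 0% of all genes were called (unadjusted p under 0.05 in 854), and voom called 0. In TPM, leaving out G108 HP mouse 4, G108 SP mouse 1 or vehicle SP mouse 2 gave 9, 6 and 5 members called, with 5163 of 11791, 3954 of 11801 and 3451 of 11848 genes called lower, and after scaling leaving out any library gave 0 members. Array quality weights in TPM again called all members but Bckdhb, with 7183 of all genes called lower. The scaled values ran from -0.43 for Mccc1 (95% confidence interval -0.95 to 0.08) to 0.33 for Bckdhb (-0.43 to 1.09), with 3 of 10 positive.

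Ratios between members within a library do not depend on how libraries are scaled, and they were described without a test. Bckdha over Dbt, the balance of E1 to E2 transcripts, was at 10.7, 13.3, 8.88 and 7.40 in vehicle SP and at 8.05, 7.22, 8.18 and 6.97 in vehicle HP. It was at 10.49, 8.09, 8.52 and 6.42 in G108 SP and 7.03, 7.82, 8.08 and 5.81 in G108 HP. All groups overlapped, and vehicle SP mice 1, 2 and 3 lay above every HP liver. Bckdha over Bckdhb was between 2.09 and 4.26 in 15 livers and 1.37 in vehicle SP mouse 4.

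Ppm1k over Bckdk, phosphatase to kinase, had a mean of 2.85 (SD 0.51, n = 4) in vehicle SP, 3.73 (SD 0.91) in vehicle HP, 3.26 (SD 0.20) in G108 SP and 3.33 (SD 0.75) in G108 HP. The ranges of all 4 groups overlapped, so that no shift in this balance was visible beyond the spread of mice. Mccc2 over Mccc1 kept within 3.26 and 5.17 in all 16 livers, with means from 3.85 in G108 SP to 4.45 in vehicle SP. Dbt over Bckdk, a ratio chosen after the values were seen, was at 3.94, 4.16, 5.27 and 4.45 in vehicle SP, below all 4 vehicle HP livers (5.86 to 7.71) and all 4 G108 HP livers (5.43 to 10.3). In G108 SP it ran from 4.69 to 9.12 and overlapped vehicle SP.

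**Figure D4:**
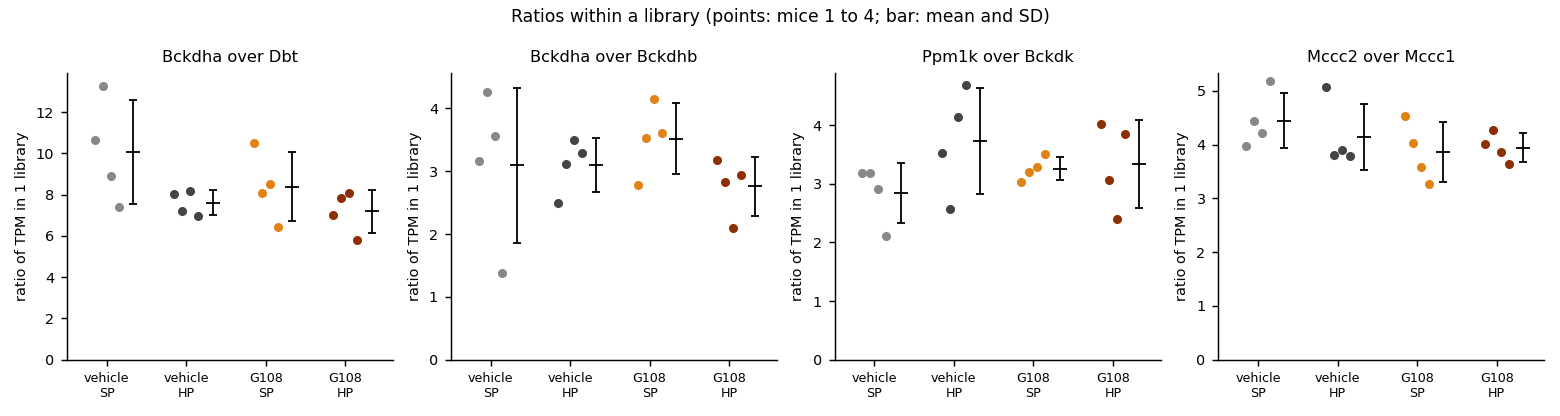
Ratios of TPM within a library (vertical axes, from 0) for 4 pairs of members, with 1 point per mouse in mouse order within each group and a bar for the mean and SD of 4 mice. The groups overlap in every panel, and vehicle SP mouse 4 stands lowest for Bckdha over Bckdhb, at 1.37.

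Of 33 other genes of the pathway, listed for transamination, the later steps, cofactor supply, carriers and regulation, 29 averaged 1 TPM or more. On SP 27 of the 29 rose in TPM by limma and 0 fell, where 77.0% of all genes were called higher, with a median log2 fold change of 0.97 against 0.60 for all genes. The 2 not called were Hsd17b10 (0.30, adjusted p = 0.154) and Lipt2 (0.43, adjusted p = 0.0596). After scaling 1 of 29 was called, where 2.72% of all genes were, with a median of 0.22 against -0.01. On HP 0 of 29 were called in TPM and 1 after scaling, and 0 of 29 in the comparisons of diet and the interaction under either. Unadjusted p values under 0.05 were found for 3 of 29 on HP, 11 for HP with G108, 2 for HP with vehicle and 24 for the interaction in TPM, where 1410, 5325, 374 and 5685 of all 11839 genes had one. Bcat1, which encodes the cytosolic aminotransferase, was listed at 0 in all 16 livers. Bcat2, which encodes the mitochondrial aminotransferase, was at 17.5 to 28.4 TPM in vehicle SP and 43.6 to 49.8 TPM in G108 SP (log2 fold change 0.97, limma adjusted p = 0.00103), a difference of 0.22 after scaling (adjusted p = 0.32). Dld encodes E3, which the complex shares with other dehydrogenases, and it was at 8.39, 13.5, 13.6 and 4.84 TPM in vehicle SP and 14.3, 22.2, 26.6 and 25.9 TPM in G108 SP (log2 fold change 1.13, limma adjusted p = 0.0058), with a scaled difference of 0.41 (adjusted p = 0.328) that became 0.19 without vehicle SP mouse 4.

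The gene called after scaling on both diets was Klf15 (chr6:90462576-90475238, plus strand), which encodes a transcription factor known to promote amino acid breakdown and gluconeogenesis in fasted liver. In TPM, Klf15 was at 37.6, 41.6, 35.0 and 30.8 in vehicle SP and 66.7, 86.8, 103 and 101 in G108 SP, with a log2 fold change of 1.27 (SE 0.18, limma adjusted p = 0.000286). On HP it was at 37.7, 52.3, 46.6 and 44.0 TPM with vehicle and 63.9, 67.6, 55.6 and 90.7 TPM with G108 (log2 fold change 0.60, SE 0.18, limma adjusted p = 0.149). In both diets every G108 liver exceeded every vehicle liver in Klf15, as was so for 6634 of all 11839 genes on SP and 908 on HP.

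Scaled, Klf15 was at 54.4, 43.2, 39.3 and 45.3 in vehicle SP, 56.9, 65.7, 67.4 and 68.7 in G108 SP, 45.3, 49.0, 51.1 and 50.4 in vehicle HP, and 62.4, 71.6, 66.3 and 73.3 in G108 HP. The 8 G108 livers thus stood above the 8 vehicle livers. Within a diet, the scaled groups were apart upwards for 535 of all 11839 genes on SP and 497 on HP. The scaled log2 fold change was 0.50 on SP (SE 0.10, limma adjusted p = 0.0171) and 0.47 on HP (SE 0.10, limma adjusted p = 0.0415), and the interaction was -0.03 (95% confidence interval -0.34 to 0.29). When single libraries were left out, the scaled call was kept in 11 of 16 fits on SP (limma adjusted p from 0.00405 to 0.0682) and lost without vehicle SP mouse 2 or 3 or G108 SP mouse 2, 3 or 4. On HP it was kept in 4 of 16 (0.0245 to 0.126), those without vehicle SP mouse 1, 3 or 4 or G108 SP mouse 1, while the fold changes stayed between 0.44 and 0.59 on SP and 0.44 and 0.52 on HP. Without vehicle SP mouse 4 and G108 HP mouse 3 the adjusted p was 0.0379 on SP and 0.0785 on HP.

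**Figure D5:**
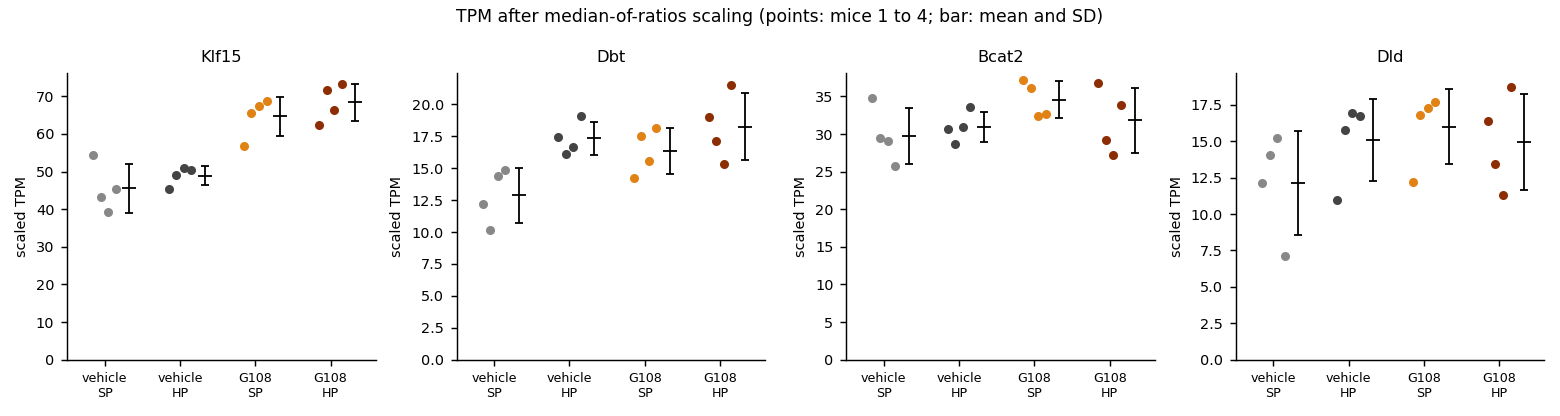
TPM after median-of-ratios scaling (vertical axes, from 0) of Klf15, Dbt, Bcat2 and Dld in the 16 livers, with 1 point per mouse in mouse order within each group and a bar for the mean and SD of 4 mice. Klf15 of all G108 livers (56.9 to 73.3) is above that of all vehicle livers (39.3 to 54.4), and Dbt of vehicle SP livers (10.2 to 14.8) is below that of all HP livers (15.3 to 21.5).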

How the data were processed

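Liver RNA of 16 mice was sequenced, 1 library per mouse and 4 per group. Per the submitters' processing notes, the authors checked reads with FastQC 0.11.8, aligned them to GRCm38 with HISAT2 2.0.5, counted them with featureCounts and used DESeq2 1.36.0. The values deposited by the authors are TPM per gene, in 1 table, and the fits here did not use read counts from the authors. Groups came from the sample records. The day of culling, the age and the weeks on high-fat food follow those records, which differ from the paper's methods.

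Symbols, positions and exon lengths came from GENCODE M21 (GRCm38), which annotated 55227 identifiers, and promoters from RefSeq (GRCm38.p6). TPM times exon length fell on steps of 1 read: 98.7% of 139252 low values came within 0.02 of an integer. Each recovered depth rests on the estimated size of this step and on the exon lengths used. At most 0% of nonzero values were identical between libraries.

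Genes averaging 1 TPM or more were compared on log2(TPM + 1), a scale that understates changes of low genes. The tool was limma 3.58.1 (R 4.3.3), fitting 1 mean per group over all 16 libraries and an intensity trend. Calls were made at a Benjamini-Hochberg adjusted p under 0.05 over the 11839 genes tested. The same was done after median-of-ratios scaling (factors from 11591 genes). The model was tested on simulated data. The genes named are the 10 members, Bcat1, Bcat2, Dld, and other pathway genes called after scaling. Members and lists were chosen with earlier results of these data known. The remaining genes named after their values were seen are Hsd17b10 and Lipt2, the 2 not called. Mouse numbers were not used as a pairing, since the sample records name none. Deviations from group means of same-numbered mice had r from -0.57 to 0.53 (median -0.03, 24 pairs). For mice of unlike numbers r ran from -0.55 to 0.60 (median 0.02, 72 pairs). The alternatives were a pseudocount of 0.1, no filter, a mean TPM of at least 5, both scalings, TPM rescaled without 37 mitochondrial and 49 Mup genes, only the groups compared, a replicate block, array quality weights, voom on recovered reads and each library left out. Leaving out 2 libraries together was added after the data were seen.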

Additional observations from a re-analysis of the deposited data

Results flagged for a closer look

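Over 13 genes in 4 groups (52 groups of 4 livers), 2 single livers stood far from the other 3 of their group by Dixon's 95% criterion, which divides the gap to the nearest liver by the range of the group. Chance marks about 1 in 20 groups. Bckdhb in vehicle SP mouse 4 was at 54.4 TPM where the others were at 28.4 to 31.9, and this gap was 0.862 of the range. Mccc1 in vehicle HP mouse 1 was at 2.06 TPM where the others were at 3.51 to 3.70, and this gap was 0.884 of the range.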

How the results depend on the processing

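On SP, the members called went from 10 in TPM to 0 with median-of-ratios scaling, 0 with TPM rescaled without mitochondrial and Mup genes and 0 with voom on recovered reads, and the other pathway genes from 27 to 1 under each of these. Under these scalings some log2 fold changes on SP turned negative. Median-of-ratios scaling gave -0.18 for Bckdhb, -0.15 for Bckdk, -0.0017 for Ppm1k, -0.026 for Hibch and -0.15 for Hibadh, and voom gave -0.18, -0.23, -0.00094, -0.028 and -0.16. The rescaled TPM gave -0.12 for Bckdhb, -0.11 for Bckdk and -0.089 for Hibadh. Median-of-ratios scaling and voom left the median gene at -0.0082 and -0.0077 on SP. The median gene is not given here for TPM rescaled without mitochondrial and Mup genes, which may keep a part of the shared shift. On HP, median-of-ratios scaling and voom each called 1 other pathway gene. Array quality weights called 1 member on HP, 9 for HP with G108 and 9 for the interaction, and 4, 24 and 26 other pathway genes, besides 1 for HP with vehicle, and the cause was not tested. Of all 11839 genes these weights called 2126 on HP, 8502 for HP with G108, 7267 for the interaction and 79 for HP with vehicle. Leaving out single libraries gave 0 to 7 members for HP with G108 and 0 to 9 for the interaction, and 0 to 17 and 0 to 24 other pathway genes. The same fits called 0 to 5050 and 0 to 5188 of all genes. The replicate block on mouse number, which the sample records do not give as a pairing, called 10 members on SP in TPM. Of all 11839 genes it called 8954 there, against 9185 without the block. It called 0 members on HP and 0 after scaling, and 213 of all genes on SP after scaling against 322. On HP it called 71 of all genes in TPM against 132 and 35 after scaling against 145, and Klf15 after scaling had an adjusted p of 0.0476 on SP and 0.101 on HP in limma. Array quality weights were run in TPM only. A pseudocount of 0.1, no filter, a mean TPM of 5 or more and a fit of only the groups compared kept the count of members on SP between 8 (with 2 members under the filter of 5) and 10, and on HP at 0, and Hibch was lost without the filter (adjusted p = 0.0632 in limma). The interaction could not be fitted with only the groups compared. With 4 livers per group the scaled 95% confidence intervals of members on SP reach from -0.72 to 0.72, and for Bckdk the counting error (5.28 to 6.90%) was as large as the spread between mice in vehicle SP (5.59%) and G108 HP (4.59%).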
